A study of Homo sapiens with 3 samples.

Results

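The 40 genes described here encode the sugar and monocarboxylate carriers of the plasma membrane and organelles: every gene symbol of the SLC2A (14 genes), SLC5A (12 genes) and SLC16A (14 genes) families, of 35880 gene symbols measured in all. They were picked by gene symbol, with earlier results of these data known. The cells were HEK293T, an established line derived from human embryonic kidney and expressing the SV40 large T antigen. They were untreated, grown in high-glucose medium with 10% FBS and harvested when 70% confluent, and polyadenylated RNA was sequenced in 3 libraries described as biological replicates 1, 2 and 3. The 3 libraries formed 1 group with no control, so each gene was set against a level of 1 TPM (the length-corrected share of a library's transcripts, scaled to the same total in each library) and genes were compared with each other within libraries. Separate cultures were not stated for the replicates: the p-values cover the spread from library to library, and that spread may be technical only.

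SLC2A genes encode the GLUT carriers, which let glucose, fructose, urate or myo-inositol cross a membrane, mostly down their gradients. SLC5A genes encode sodium-coupled carriers, which use the sodium gradient to pull in glucose, myo-inositol, iodide, choline, vitamins or short monocarboxylates. SLC16A genes encode the MCT carriers: the best known move lactate, pyruvate and ketone bodies together with a proton and need a small membrane glycoprotein as chaperone, and others carry aromatic amino acids, carnitine or creatine.

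The lactate carrier MCT1 (SLC16A1), the biotin and pantothenate carrier SMVT (SLC5A6) and the basal glucose carrier GLUT1 (SLC2A1) had the highest mean TPM of the 40. The libraries of SLC2A1 overlapped those of the next member. Over transcripts annotated as protein coding, SLC2A1 averaged 10.5 ± 1.46 TPM, below SLC16A10 (25.5 TPM) and SLC2A8 (17.7 TPM), among others. Kidney and intestinal glucose carriers were near or at 0. SLC16A1 held 39.7% ± 0.352 (SD, n = 3) of the TPM of all members, SLC16A1 and SLC5A6 together 59.6% ± 0.571, and the 5 highest members 79.5% ± 0.470. Of the 40 genes, 18 were called above 1 TPM, 13 below and 4 undecided, and 5 were listed at 0 in every library (limma's moderated test, adjusted p under 0.05). The members called above and below came to 51.4% and 37.1% of the 35 tested, beside 58.5% and 33.9% of all symbols tested. The counts on gene lists given below can be read beside the same shares. The members' summed level was 476, 450 and 473 TPM in replicates 1, 2 and 3. This is 0.0466% of all TPM on average. In RNA from whole cultures, fewer cells that express a gene and less RNA per cell cannot be told apart.

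**Figure D1:**
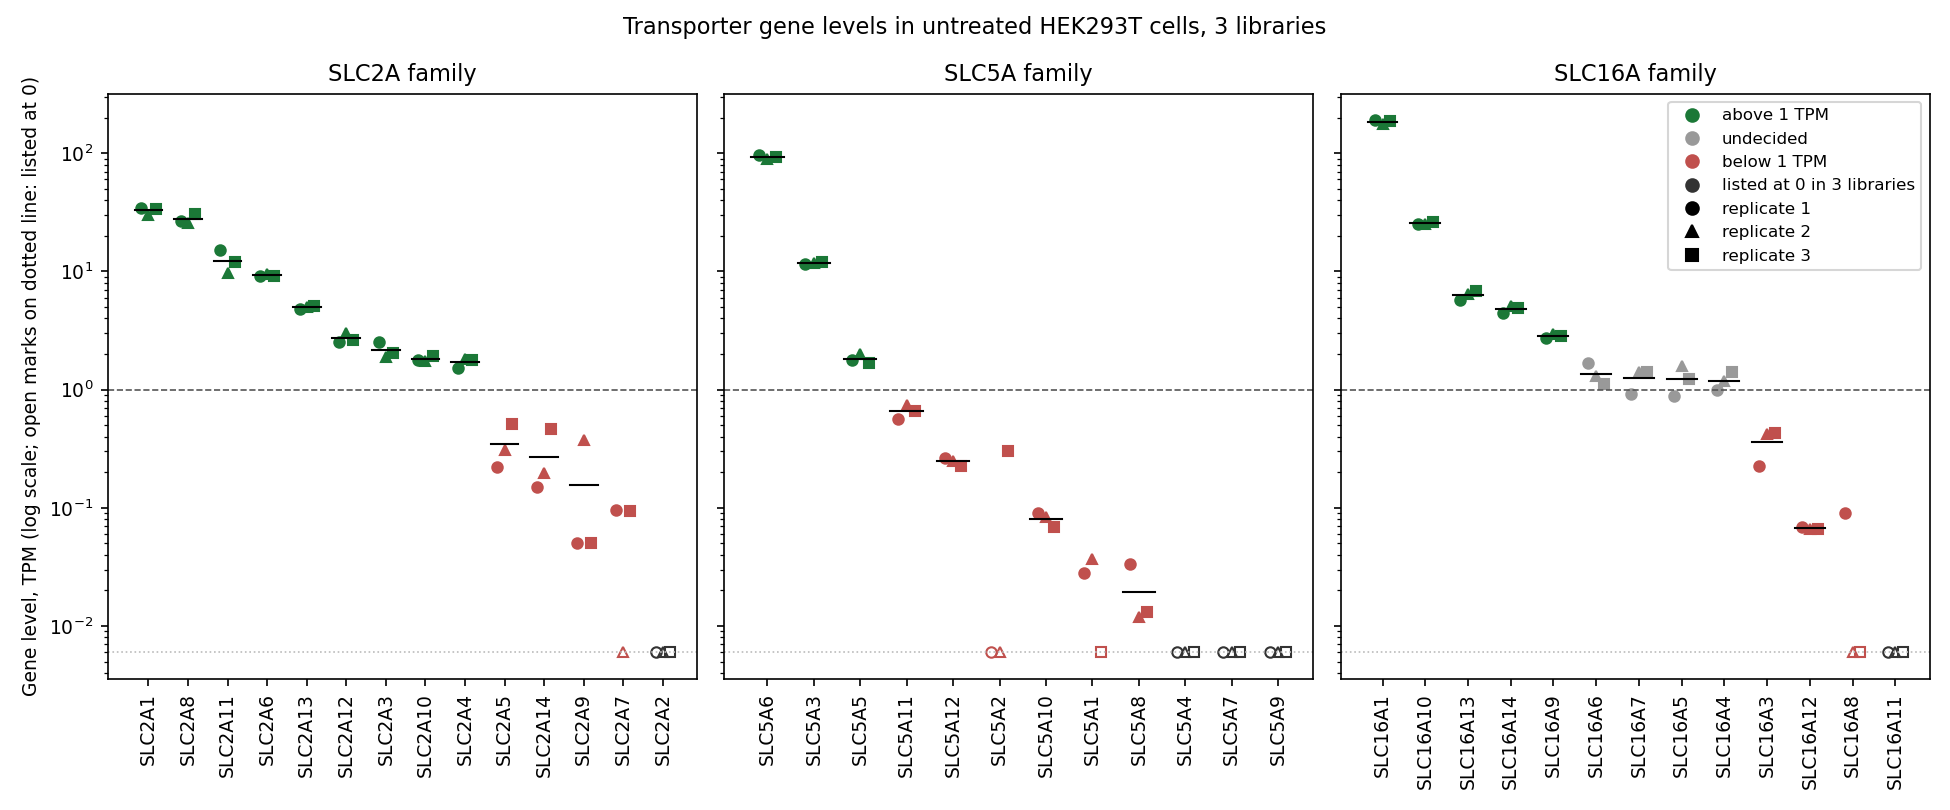
Level of 39 of the genes in TPM (log axis) in each of the 3 libraries, by family and in order of the mean. Black bars mark means where all 3 values were above 0, colours mark the call against 1 TPM (dashed line), and open marks on the dotted line stand for values listed at 0. The SLC16A1 values, from 178 to 191 TPM, lie above all others, and 5 genes have only open marks.

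The families differed in how their levels were distributed. The SLC16A genes summed to 262 ± 5.55 TPM (SD, n = 3), the SLC5A genes to 108 ± 2.89 TPM and the SLC2A genes to 96.4 ± 6.29 TPM. In SLC2A, 9 of 14 genes were called above 1 TPM, 4 below and 1 was at 0. In SLC16A, 6 of 14 were above, 4 undecided, 3 below and 1 at 0. In SLC5A, 3 of 12 were above, 6 below and 3 at 0, so that the median gene stood at 0.0904 TPM, beside 1.98 TPM in SLC2A and 1.31 TPM in SLC16A. The median over the 40 genes was 1.24 TPM, and over all 35880 symbols it was 0.0994 TPM. Of the 35880 symbols, 12856 were called above 1 TPM, 1680 were undecided, 7454 were below and 13890 were at 0. The difference between the families was not tested.

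SLC2A1 (chr1:42925375-42959176, minus strand, GENCODE release 29 on GRCh38) encodes GLUT1, the glucose carrier of most proliferating cells. Its level was 34.6, 29.9 and 33.9 TPM in replicates 1, 2 and 3, a mean of 32.8 ± 2.56 TPM (SD, n = 3) and 5.02 ± 0.05 (SE) above 1 TPM on the log2 scale (limma, adjusted p = 9.63e-08). The most abundant transcript in each library was one that the annotation assigns to nonsense-mediated decay, the pathway that degrades mRNAs with an early stop codon. This 2398-base transcript had 13.1, 14.3 and 15.4 TPM. The full coding transcript, of 3670 bases, had 10.0, 11.2 and 9.08 TPM, lower in every library. In the deposited estimated counts, which go with replicate 1 and are not divided by length, the decay transcript held 42.3% of the gene's total and the coding transcript 51.2%. A 578-base retained-intron transcript had 10.7, 3.44 and 9.05 TPM, and the low value in replicate 2 went with the low total of the gene there. Summed over protein coding transcripts alone, SLC2A1 stood at 10.5 ± 1.46 TPM, 32.1% of its TPM.

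The decay transcript lacks exon 5 of the coding transcript. Reads can separate these forms only over limited stretches. Of the 2368 words of 31 bases in the decay transcript, 29 occurred in no other SLC2A1 transcript, against 1279 of 3640 in the coding transcript and 85 of 548 in the retained-intron transcript. The coding transcript also reaches 781 bases further at its 3′ end and 328 further at its 5′ end. How these ends and the uneven coverage of oligo-dT libraries bear on the division of reads was not tested.

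**Figure D2:**
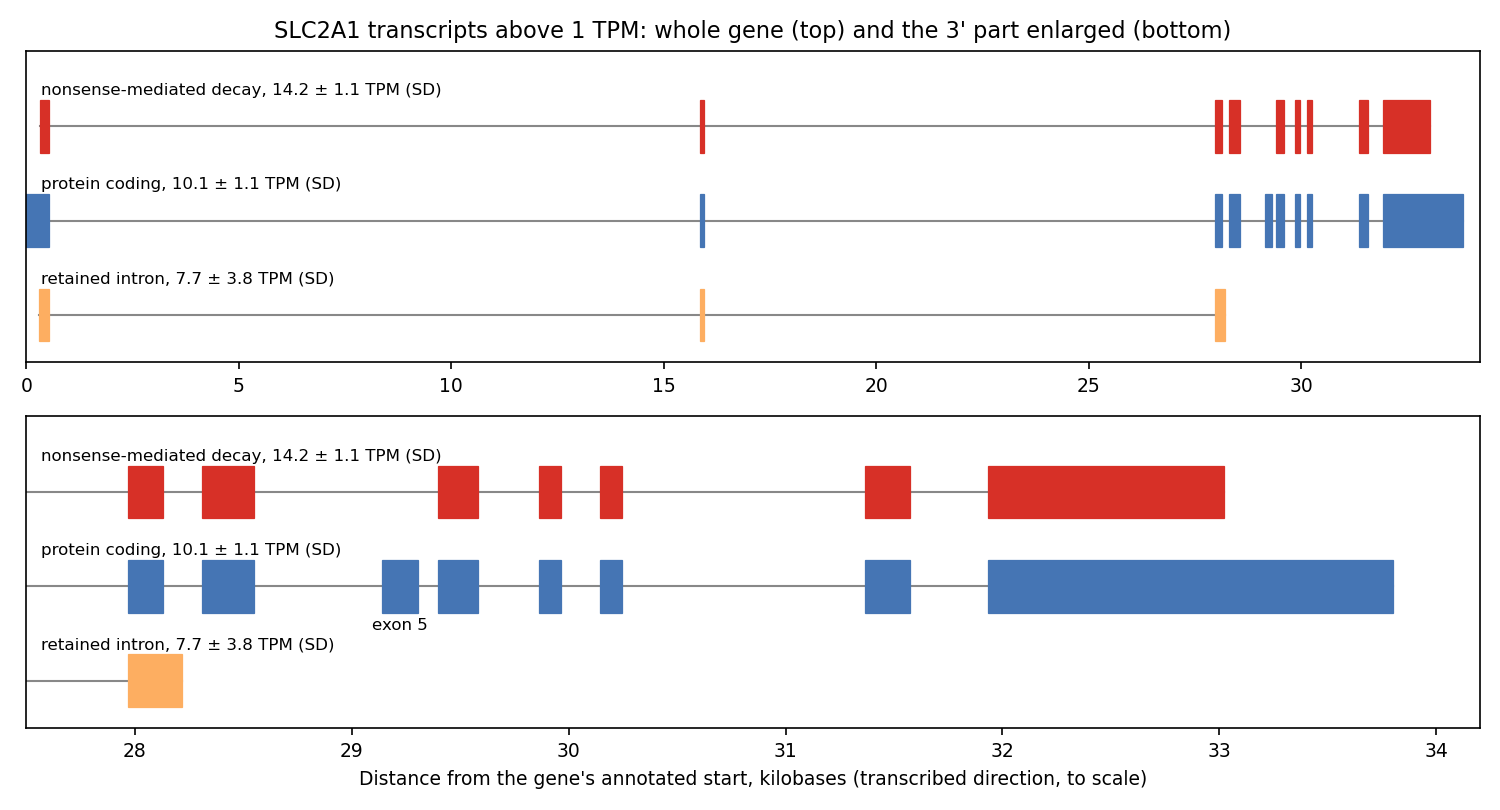
Exons (boxes) and introns (lines) of the 3 SLC2A1 transcripts above 1 TPM, to scale in kilobases from the gene's annotated start, whole gene above and 3′ part below. Labels give mean TPM ± SD over 3 libraries; the decay transcript, the most abundant in TPM, lacks exon 5 and ends before the coding transcript.

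The glucose carriers GLUT3 and GLUT4 were lower. SLC2A3, the high-affinity GLUT3 of neurons, had 2.55, 1.88 and 2.02 TPM (limma, adjusted p = 0.00128), and SLC2A4, the insulin-responsive GLUT4 of muscle and fat, had 1.51, 1.81 and 1.79 TPM (limma, adjusted p = 0.00302). SLC2A1 exceeded them in each library, by 3.88 ± 0.15 and 4.19 ± 0.23 on the log2(TPM + 0.1) scale (mean ± SD, n = 3). Over protein coding transcripts alone these ratios were 2.75 ± 0.32 and 3.31 ± 0.31. With 3 libraries an exact sign-flip test cannot go below p = 0.25, so no p is given for any pair. SLC2A4 is also split: its coding transcripts averaged 0.995 ± 0.310 TPM and were undecided against 1 TPM, and in replicates 1 and 3 the most abundant transcript was a decay transcript. SLC2A2, the GLUT2 of liver and pancreatic beta cells, was listed at 0 in all 3 libraries.

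SLC2A14, a testis gene that arose as a copy of SLC2A3, had 0.150, 0.197 and 0.462 TPM, which correspond to about 3, 3 and 6 reads. The genes lie 28081 bases apart on chromosome 12, and their coding sequences matched at 96.7% of aligned bases. Of the 31-base words in SLC2A14 transcripts, 27.0% were also in SLC2A3 transcripts, so reads could be divided between the copies and both levels are uncertain. The SLC2A3 pseudogene SLC2A3P1 had 1.44, 0 and 0.666 TPM, and the division of reads with it was not tested. The log2 ratio of SLC2A3 to SLC2A14 was 2.69 ± 0.75 (SD, n = 3), or 3.66 over transcripts of at least 1000 bases. By comparison, the aligned coding sequence of SLC2A1 matched that of SLC2A3 at 67.2% and that of SLC2A4 at 69.1%.

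The intracellular and less studied GLUT genes made up most of the rest of the family. SLC2A6, which encodes the lysosomal GLUT6, had 9.12, 9.59 and 9.20 TPM, against 26.9, 25.7 and 30.9 TPM for SLC2A8, which encodes the endosomal and lysosomal carrier GLUT8. SLC2A6 was lower than SLC2A8 in each library, with a log2 ratio of -1.57 ± 0.16 (SD, n = 3), or -0.99 ± 0.11 over coding transcripts. SLC2A8 had 45.7% of its TPM in transcripts under 1000 bases, and these held 17.0% of its estimated counts. SLC2A11, which encodes GLUT11, had 15.1, 9.69 and 12.0 TPM, the widest spread among members above 5 TPM (CV 21.99%). Only 19.2% of that TPM was in coding transcripts, which averaged 2.35 ± 0.593 TPM, and its most abundant transcript was a 570-base retained-intron form. In addition, 16.1% of the 31-base words of SLC2A11 occur on the opposite strand of other genes, and the strand setting used in counting is not given in the sources used here.

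SLC2A10 (GLUT10, the gene of arterial tortuosity syndrome), SLC2A12 (GLUT12) and SLC2A13 (HMIT, a proton-coupled myo-inositol carrier) were all called above 1 TPM. Over transcripts of at least 1000 bases alone, SLC2A10 averaged 1.13 TPM and was undecided (limma, adjusted p = 0.118), and shorter ones held 37.4% of its TPM. SLC2A13 had 4.84, 4.99 and 5.13 TPM. SLC2A10 had 1.78, 1.73 and 1.91 TPM, against 2.52, 2.99 and 2.62 TPM for SLC2A12, a log2 ratio of -0.56 ± 0.17 (SD, n = 3), or -1.19 over transcripts of at least 1000 bases. For SLC2A12, 38.4% of the 31-base words lie on the opposite strand of TBPL1, a gene at 52.8 ± 2.85 TPM, and the part of TBPL1 reads in its level was not tested. The fructose carrier SLC2A5 (GLUT5) was called below 1 TPM, at 0.223, 0.307 and 0.508 TPM (limma, adjusted p = 0.00846, and 0.0502 without replicate 2). SLC2A9, the urate carrier GLUT9, had 0.0506, 0.371 and 0.050 TPM, or about 2 to 3 reads in each library. The higher value in replicate 2 came from a 446-base transcript at 0.343 TPM. SLC2A7 (GLUT7), 8761 bases from SLC2A5, was at 0.0953, 0 and 0.0942 TPM, about 3 reads where it was above 0.

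Among the sodium-coupled carriers, none of the glucose and mannose carriers was above 1 TPM. SLC5A1, the intestinal SGLT1, had 0.0278, 0.0366 and 0 TPM, and SLC5A2, the kidney SGLT2, had 0, 0 and 0.300 TPM. The last value corresponds to about 1 read on a 334-base processed transcript, and 36.8% of the 31-base words of SLC5A2 lie on the opposite strand of other genes, most of them C16orf58 (25.6 ± 1.37 TPM). SLC5A10, a kidney mannose and fructose carrier, had 0.0898, 0.0833 and 0.0690 TPM, and 22.1% of its words lie on the opposite strand of GRAP. SLC5A4, whose product SGLT3 acts as a glucose sensor in humans, and SLC5A9, which encodes the mannose carrier SGLT4, were listed at 0. A count of 0 allows up to 3 reads, which over 2000 effective bases is 0.0633 TPM in replicate 1. This limit covers counting error only, at a depth of about 33100000 to 33700000 reads per library. It applies to genes listed at 0 and is lower for longer transcripts and higher for shorter ones.

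The sodium-coupled carriers above 1 TPM take up vitamins, inositol and iodide. SLC5A6 (chr2:27199587-27212958, minus strand) had 95.9, 89.6 and 93.2 TPM, a mean of 92.9 ± 3.18 TPM (SD, n = 3) and 6.52 ± 0.02 (SE) above 1 TPM on the log2 scale (limma, adjusted p = 4.28e-09). No other member overlapped it. Its product SMVT imports biotin, pantothenate and lipoate. All 7 genes on a list for the use of these vitamins were above 1 TPM, beside 58.5% of all symbols tested. They ranged from PANK1 at 9.80 ± 0.273 TPM to PANK4 at 37.2 ± 2.35 TPM. Of the TPM of SLC5A6, 49.0% was in transcripts under 1000 bases, which held 16.4% of its estimated counts, and its 3231-base coding transcript alone had 39.1 ± 0.648 TPM. SLC5A3, which encodes the myo-inositol carrier SMIT1, had 11.5, 11.8 and 12.0 TPM. It exceeded SLC5A11, which encodes SMIT2 (0.562, 0.747 and 0.655 TPM), by 3.98 ± 0.16 on the log2(TPM + 0.1) scale, or 5.0 ± 0.25 over coding transcripts. It exceeded SLC2A13, the proton-coupled inositol carrier, by 1.22 ± 0.01. SLC5A6 exceeded SLC5A3 by 2.97 ± 0.07, or by 2.00 over transcripts of at least 1000 bases.

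On the list for myo-inositol and organic osmolytes, 8 of 10 genes were above 1 TPM, beside 58.5% of all symbols tested. Among them were NFAT5, the factor that induces SLC5A3 under osmotic stress, at 9.82 ± 0.248 TPM, and ISYNA1 at 164 ± 4.53 TPM. ISYNA1 makes inositol from glucose 6-phosphate. MIOX, the kidney enzyme that breaks inositol down, was below 1 TPM at 0.170 ± 0.0623 TPM. SLC5A5, the sodium-iodide symporter of the thyroid, was called above 1 TPM with 1.80, 1.99 and 1.67 TPM (limma, adjusted p = 0.00168). All of its TPM was in its single coding transcript, about 135 to 162 reads per library. The 4 thyroid follicle markers, among them TG, TSHR and PAX8, were all below 1 TPM and summed to between 0.696 and 0.920 TPM per library.

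The sodium-coupled monocarboxylate carriers were low. SLC5A8 (SMCT1) had 0.0335, 0.0120 and 0.0132 TPM, about 3, 1 and 1 reads, all on a transcript that was not matched to GENCODE release 29 and so has no type here. SLC5A12 (SMCT2) had 0.263, 0.251 and 0.228 TPM, about 16 to 21 reads. SLC5A7, the choline carrier of cholinergic neurons, was listed at 0. Of 6 genes for the use of choline, 5 were above 1 TPM, beside 58.5% of all symbols tested. CHAT, which makes acetylcholine, was at 0, 0.138 and 0 TPM.

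In the SLC16A family, SLC16A1 (chr1:112911847-112957013, minus strand) had 191, 178 and 187 TPM, a mean of 185 ± 6.84 TPM (SD, n = 3) and 7.52 ± 0.02 (SE) above 1 TPM on the log2 scale (limma, adjusted p = 2.99e-09). Its lowest library stood above the highest of SLC5A6. Its 3910-base coding transcript was more even than the gene total, at 146, 146 and 147 TPM. A 452-base processed transcript had 43.5, 29.9 and 38.3 TPM, 20.0% ± 3.00 of the gene's TPM and 1.93% of its estimated counts. Within libraries SLC16A1 exceeded SLC2A1 by 2.50 ± 0.06 on the log2 scale, or 3.80 ± 0.20 over coding transcripts.

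SLC16A3, which encodes the lactate exporter MCT4, had 0.227, 0.425 and 0.427 TPM and was called below 1 TPM (limma, adjusted p = 0.00768). The TPM of replicate 1 was the lowest, although the 3 values correspond to about 13, 14 and 13 reads. SLC16A7, which encodes the high-affinity MCT2, was undecided at 0.922, 1.42 and 1.41 TPM. SLC16A1 exceeded SLC16A3 by 8.69 ± 0.43 and SLC16A7 by 7.13 ± 0.37 on the log2(TPM + 0.1) scale, and by 8.48 ± 0.34 and 7.02 ± 0.37 over coding transcripts. Over transcripts of at least 1000 bases it exceeded SLC16A7 by 7.74. SLC16A8, the MCT3 of the retinal pigment epithelium, was at 0.0908, 0 and 0 TPM, about 1 read.

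The chaperones of these carriers were present. BSG (basigin), which brings MCT1 and MCT4 to the cell surface, had 571, 573 and 569 TPM, and EMB (embigin), which serves MCT2, had 21.3, 20.8 and 20.3 TPM. The ratio of BSG to EMB was 4.77 ± 0.03 on the log2 scale. Of 8 chaperones and regulators, 7 were above 1 TPM and PDZK1IP1, an activator of SGLT2, was listed at 0. Of 16 genes of lactate, pyruvate and ketone metabolism, 14 were above 1 TPM. Both counts stand beside 58.5% of all symbols tested. LDHB, the heart form of lactate dehydrogenase, was highest at 1729 ± 7.79 TPM, and MPC1L was below at 0, 0.229 and 0 TPM.

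SLC16A10 (chr6:111087503-111231194, plus strand) encodes the aromatic amino acid carrier MCT10, which also carries thyroid hormones. It had 25.3, 25.2 and 26.1 TPM (limma, adjusted p = 1.24e-08), with all of its TPM in coding transcripts. Of 6 genes that handle thyroid hormone inside cells, 3 were above 1 TPM, with the receptor THRA highest at 20.1 ± 0.778 TPM, and the deiodinases DIO1, DIO2 and DIO3 were all below, with 0.241 TPM as the highest value in any library, for DIO3.

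SLC16A9, a carnitine carrier, had 2.74, 2.95 and 2.82 TPM, against 0.0687, 0.0663 and 0.0665 TPM for SLC16A12, a creatine carrier. Their log2 ratio was 4.13 ± 0.06 (SD, n = 3) with 0.1 TPM added to both, an amount above the level of SLC16A12, and 5.20 with 0.01 TPM added, so its size depends on that choice. Of 8 creatine genes, 5 were above 1 TPM, among them the sodium-coupled creatine carrier SLC6A8 at 121 ± 3.61 TPM, and 3 were below. The remaining SLC16A genes have mostly less known substrates. SLC16A13 had 5.75, 6.51 and 6.80 TPM, and its neighbour SLC16A11, 1508 bases away on the opposite strand of chromosome 17, was listed at 0. SLC16A14 had 4.42, 5.15 and 4.87 TPM. SLC16A6, which encodes MCT7, a ketone body exporter in zebrafish liver, had 1.67, 1.30 and 1.11 TPM and was undecided (limma, adjusted p = 0.0602). It was called above 1 TPM in 3 alternatives, over coding transcripts (0.0378), with a filter of 0.1 TPM (0.0456) and without mitochondrially encoded genes (0.0331), but averaged 1.01 TPM over transcripts of at least 1000 bases (0.962). Of its words, 12.0% are shared with the pseudogene SLC16A6P1, which had 0, 0 and 0.0520 TPM. SLC16A5 (0.884, 1.58 and 1.22 TPM) and SLC16A4 (0.990, 1.18 and 1.41 TPM) were undecided as well. Over coding transcripts SLC16A4 was called below 1 TPM, at 0.606 ± 0.0591 TPM.

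**Figure D3:**
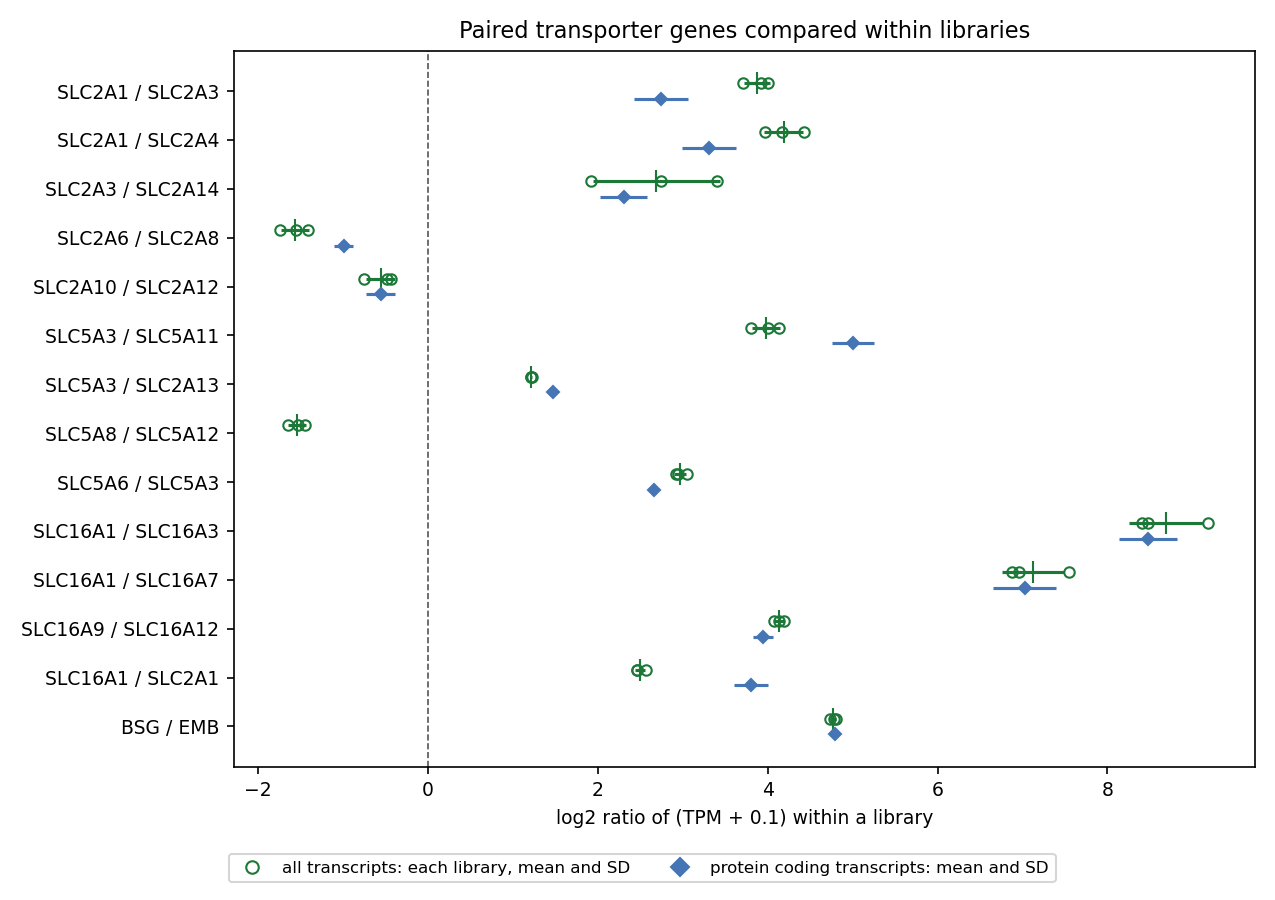
log2 ratio of (TPM + 0.1) of the first gene to the second within each library (open circles), with the mean (tick) and SD (bar), and the mean and SD over protein coding transcripts (diamonds), for 14 pairs. Ratios of SLC2A1 moved down over coding transcripts (3.88 to SLC2A3 over all transcripts and 2.75 over coding ones), while those of SLC16A1 to SLC16A3 and SLC16A7 stayed above 6.

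The ranges of neighbours in the order of levels often overlapped. Overlap here sets the lowest library of a gene against the highest of the next, and leaves aside the order within each library. Of 34 neighbouring pairs, 23 overlapped between libraries and 11 did not. Among the 9 neighbouring pairs with both genes above 5 TPM, 3 overlapped, among them SLC2A8 with SLC16A10 and SLC2A11 with SLC5A3. Within libraries SLC2A8 was above SLC16A10 each time (26.9 against 25.3, 25.7 against 25.2 and 30.9 against 26.1 TPM). SLC2A11 was above SLC5A3 in replicate 1 (15.1 against 11.5 TPM) and below it in replicates 2 and 3 (9.69 against 11.8 and 11.98 against 12.00 TPM). Members between 1 and 5 TPM had a median CV of 9.42% between libraries, beside 13.9% for all genes of that level. Members between 5 and 50 TPM had 5.26%, beside 4.70%.

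Several of these values depended on which transcripts were summed. Over protein coding transcripts alone, 18 of 31 members tested were above 1 TPM and 10 below (58.1% and 32.3%, beside 70.3% and 25.3% of all symbols tested that way). The members then summed to 362 ± 1.59 TPM (SD, n = 3), against 466 ± 14.5 TPM over all transcripts. Of 20 members at 1 TPM or more with several transcripts, 18 had a protein coding transcript as the most abundant; SLC2A1 and SLC2A11 did not. In 11 of the 20 the same transcript led in all 3 libraries, and in 11 the leading one held under 50% of the gene's TPM.

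**Figure D4:**
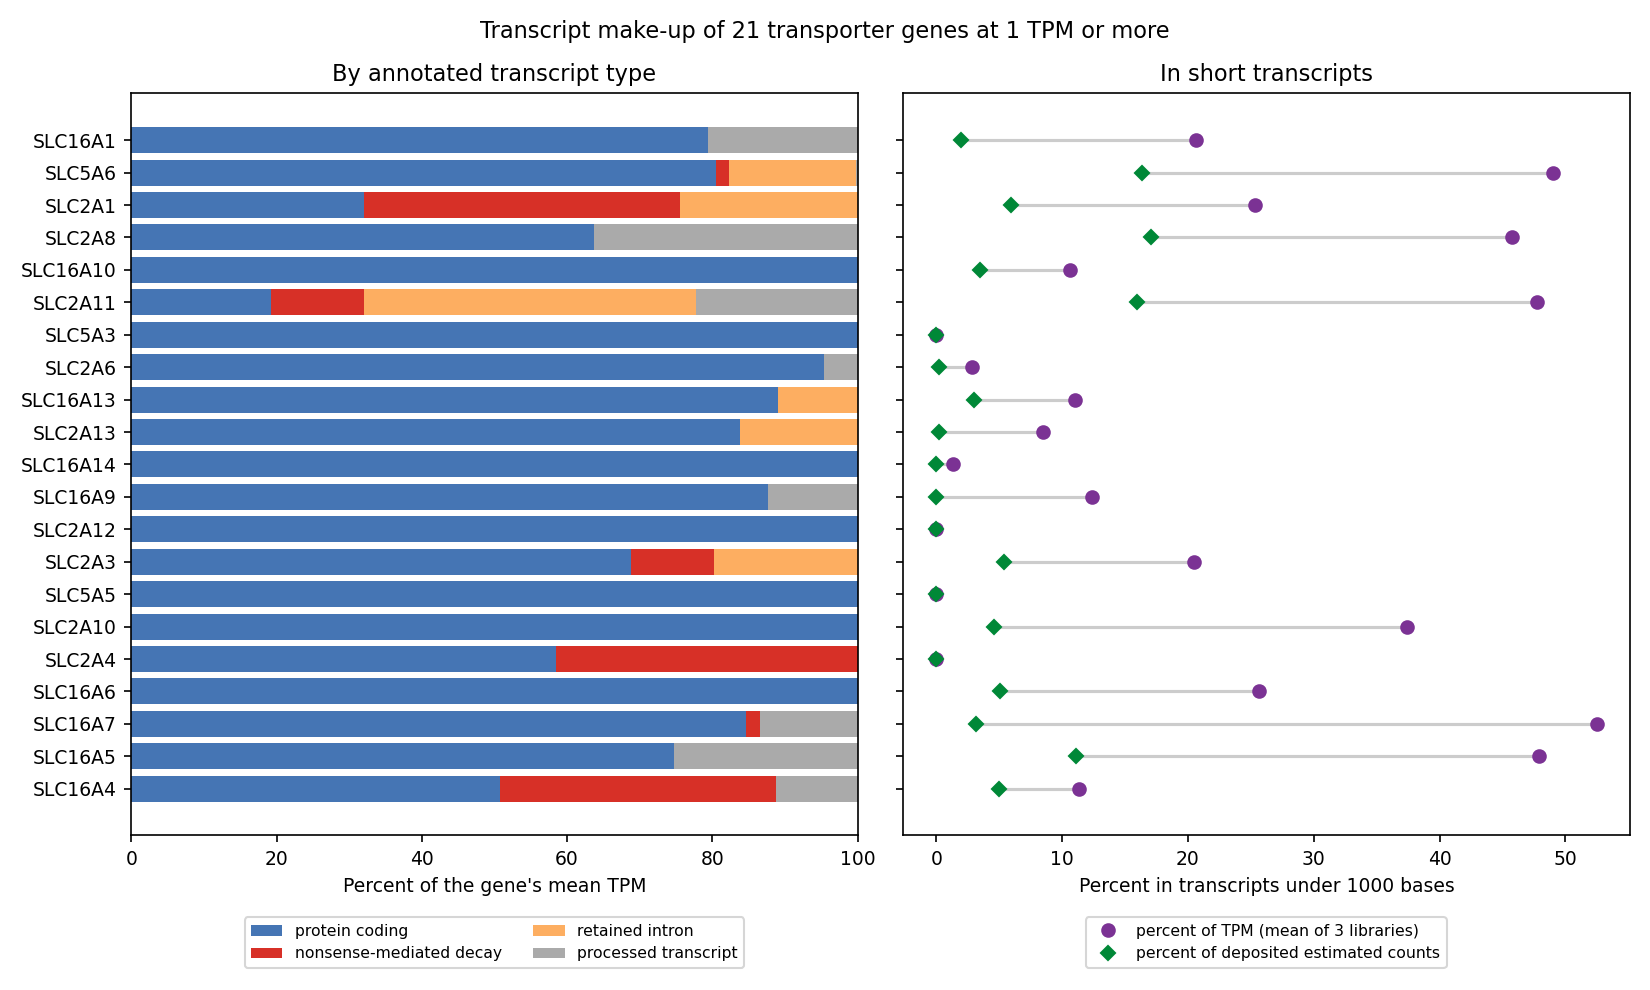
Left, percent of each gene's mean TPM in each annotated transcript type for 21 genes at 1 TPM or more. Right, percent in transcripts under 1000 bases, of TPM (circles) and of the deposited estimated counts (diamonds); for SLC5A6 these are 49.0% and 16.4%.

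The starts of 30 of the 40 genes were matched by symbol to 40 promoter windows from RefSeq (GRCh38.p14). Each spans 250 bases before and 50 after an annotated start. SLC16A1, the highest member, has no window, nor do SLC2A3, SLC2A4 and SLC16A13. Of the 18 genes called above 1 TPM, 13 are covered. Windows of genes above 1 TPM were rich in CpG dinucleotides: the median ratio of observed to expected CpG was 0.763 over 16 windows of 13 genes, beside 0.327 over 21 windows of 15 genes below 1 TPM or at 0 and 0.579 over 35116 windows of all genes. The GC box (GGGCGG on either strand), the site of Sp1-type factors, was in 68.8% of the windows above 1 TPM, 42.9% of those below or at 0 and 45.0% of all windows. CCAAT was in 37.5%, 14.3% and 34.6%. ACGTG, the core of hypoxia response elements, was in 25.0%, 19.0% and 21.4%, CACGTG, the E-box, which contains it, in 12.5%, 4.76% and 7.26%, and TATAAA in 12.5%, 14.3% and 11.5%. Windows of 1 gene are not independent and no test was made.

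The ranges overlapped: SLC16A14 and SLC2A12 were above 1 TPM with ratios of 0.384 and 0.348, while SLC16A12 and SLC5A7 were below or at 0 with 0.839 and 0.839. In 29 of the 40 windows the bases before the RefSeq start hold an exon of GENCODE release 29. The sequences below, 250 bases before the start, hold none, and are shown for a gene above 1 TPM with a CpG-rich start, a CpG-rich one below 1 TPM and a CpG-poor one at 0. The SLC16A12 stretch lies inside that gene as GENCODE annotates it, with the 5′ end of the gene at chr10:89556641. The SLC16A10 and SLC5A4 stretches lie just before their annotated genes. Capitals mark any of the 5 motifs on either strand.
SLC16A10 (chr6:111087253-111087502, plus strand): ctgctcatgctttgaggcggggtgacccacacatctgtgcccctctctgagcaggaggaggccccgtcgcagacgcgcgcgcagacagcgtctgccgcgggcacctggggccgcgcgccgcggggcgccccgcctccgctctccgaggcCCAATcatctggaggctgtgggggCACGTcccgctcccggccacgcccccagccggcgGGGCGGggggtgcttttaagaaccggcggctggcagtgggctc
SLC16A12 (chr10:89535595-89535844, minus strand): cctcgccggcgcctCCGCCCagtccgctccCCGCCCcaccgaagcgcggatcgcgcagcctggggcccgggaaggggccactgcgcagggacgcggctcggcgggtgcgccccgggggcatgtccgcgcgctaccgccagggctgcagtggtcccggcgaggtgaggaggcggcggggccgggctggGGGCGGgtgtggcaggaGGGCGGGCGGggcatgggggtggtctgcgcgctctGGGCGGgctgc
SLC5A4 (chr22:32255348-32255597, minus strand): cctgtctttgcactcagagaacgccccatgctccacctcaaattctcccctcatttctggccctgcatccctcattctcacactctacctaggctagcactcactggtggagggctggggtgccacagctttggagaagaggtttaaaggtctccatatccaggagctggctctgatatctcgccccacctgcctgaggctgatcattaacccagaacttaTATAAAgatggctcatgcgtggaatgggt
The SLC16A10 stretch holds 28 CpG, 1 GC box, 1 CCAAT and 1 ACGTG; the SLC16A12 stretch holds 34 CpG and 6 GC boxes, of which a pair overlap; the SLC5A4 stretch holds 3 CpG and 1 TATAAA.

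**Figure D5:**
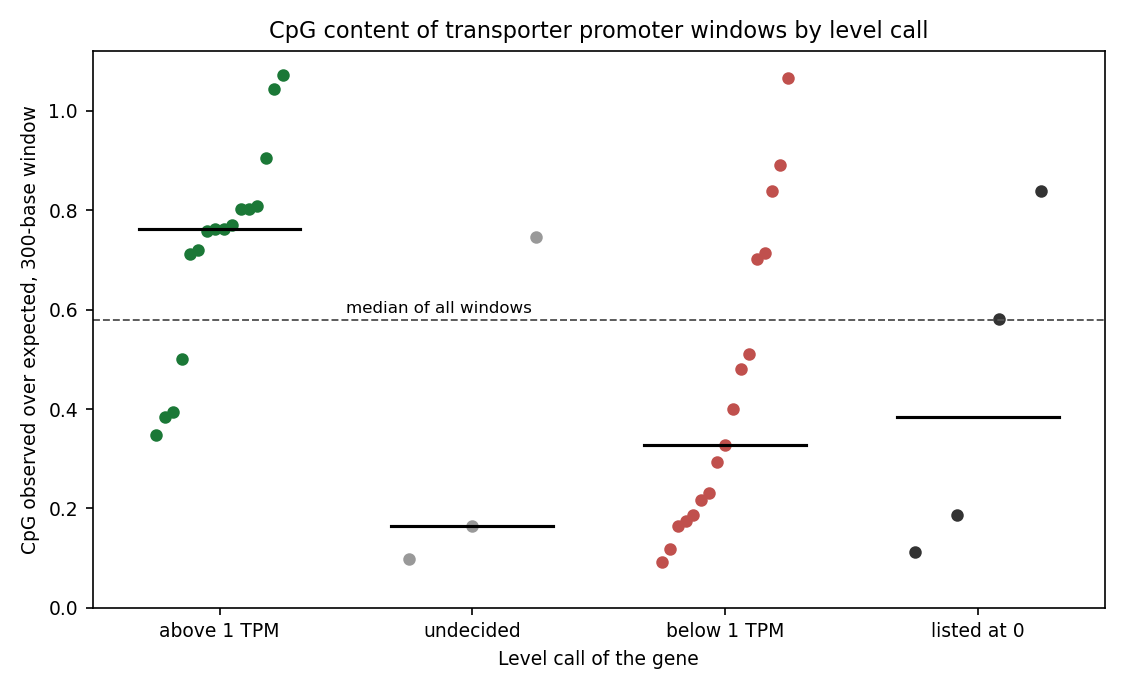
Ratio of observed to expected CpG in 40 promoter windows of 300 bases, by the level call of the gene; each point is 1 window, black bars are medians and the dashed line is the median of all windows, 0.579. Windows of genes above 1 TPM have a median of 0.763, with points in each call on both sides of the dashed line.

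Factors known to act on these genes were measured too. Of 14 listed, 11 were above 1 TPM, beside 58.5% of all symbols tested. MYC, which raises SLC2A1 and SLC16A1, was highest at 113 ± 1.86 TPM, and HIF1A, the hypoxia factor, stood at 51.7 ± 1.42 TPM. The 3 other listed factors were below 1 TPM, among them the liver and kidney factor HNF4A at 0.0862 ± 0.0351 TPM. On the proximal tubule list, 3 of 10 markers were above 1 TPM, from GGT1 at 4.98 ± 1.11 TPM to SLC13A3 at 9.77 ± 1.22 TPM. Another 3 were below and 4 at 0, with SLC34A1, SLC22A6 and SLC22A8 among those at 0. The 10 summed to between 20.0 and 25.4 TPM per library. None of the 5 enterocyte markers was above 1 TPM, and their sum was at most 0.194 TPM. Of 8 neuron markers, 5 were above, with the neurofilament gene NEFM highest at 99.97 ± 1.15 TPM. The other 3, MAP2, STMN2 and SNAP25, were called below 1 TPM. None of the 6 skeletal muscle markers, of which CKM is also a creatine gene, was called above, and 4 of 5 male germ cell markers were at 0. Of 5 erythroid markers, 1 was above (HBA1, 5.03 ± 0.786 TPM).

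Hexokinases trap the glucose that the GLUT carriers let in. HK1 and HK2 were at 58.1 ± 1.55 and 32.7 ± 0.951 TPM, and HK3 and HKDC1 were below 1 TPM. Of the 12 genes that add or remove sugar phosphates, 7 were above 1 TPM, 4 below and 1, G6PC2, at 0. G6PC3, the widely expressed glucose 6-phosphatase, was highest at 80.8 ± 0.608 TPM, and G6PC, the liver and kidney form, stood at 0.0547 ± 0.0434 TPM. All 11 measured genes of GLUT4 vesicle trafficking were above 1 TPM, beside 58.5% of all symbols tested. They ranged from LNPEP at 5.54 ± 0.108 TPM to the small GTPase RAB10 at 106 ± 2.06 TPM. The SLC2A4 level was 1.70 ± 0.166 TPM.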

How the data were processed

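Total RNA of untreated HEK293T cells was selected by oligo-dT and sequenced from a directional kit, per the labels' protocols. Per the submitters' processing notes, kallisto and hg38 were used; version, options, strand setting and transcript set: not given in the sources used here. For each transcript the authors deposited TPM in each of 3 libraries, 2 lengths (full and effective) and a single estimated count, per the file headers. The count column named no library, but rescaled it matched the TPM of replicate 1 (median relative difference 1.48e-06), so it was used only to describe replicate 1, where it sums to 33184885. Depth of 33100000, 33700000 and 33500000 reads was estimated from the spacing of low TPM values, of which 22.8%, 22.4% and 23.9% lay within 0.02 reads of a whole number (4% by chance), and reads per gene are estimates from it.

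TPM was summed by gene symbol. log2(TPM + 0.01) was tested against 1 TPM with limma 3.58.1 (moderated one-sample test with a mean-variance trend, in R 4.3.3), with Benjamini-Hochberg adjustment over the 21990 symbols that were not at 0 in all libraries. Calls above or below needed an adjusted p under 0.05, and remaining genes were undecided. Differences on this scale understate those of low genes. The test was also run on simulated data with known gene levels. That simulation did not cover the division of reads between transcripts, and its outcome is not used here. Pairs were compared as log2 ratios of (TPM + 0.1). Transcripts were matched to GENCODE release 29 by identifier (295 of 330 member transcripts, and 25 of the 26 unmatched ones above 0 repeat a matched one) and the authors may have used another release. Coding sequences were aligned in place of proteins. Some members, list genes and sequences are not reported here but stay in the counts and sums. The other members are named; from lists of partner and marker genes, mainly the highest, the lowest above 0 and those at 0. Further genes of these lists were named after their values were seen. The members, lists and pairs were chosen with earlier results of these data known. TUSC5, on the GLUT4 trafficking list, was not analysed here. Alternatives were other pseudocounts, levels of 0.5 and 2 TPM, other scalings, a filter on low values, no trend, coding transcripts alone, and leaving out each replicate. Transcripts of at least 1000 bases alone were added after seeing the data.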

Additional observations from a re-analysis of the deposited data

How the results depend on the processing

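Of the 35 members tested, 15 kept their direction and call under all 13 alternatives. A further 6 (SLC2A7, SLC5A1, SLC5A8, SLC5A10, SLC16A8 and SLC16A12) did so under the 9 to 12 alternatives that gave them a value. Over genes at 1 TPM or more in every library, with the libraries pooled, the median shift was 0.0002 (log2) with median-of-ratios scaling. Rescaling without mitochondrial genes gave 0.0979. The first value is the shift of the middle library, small by the way that scaling is defined. It does not show how far the other libraries moved. With a filter of 0.1 TPM, 7 members and 5 partner genes were called below. Leaving out each replicate gave 6 to 7 members undecided and 10 to 14 partner genes below. Against 2 TPM the direction reversed for SLC2A4 (-0.23), SLC2A10 (-0.14), SLC5A5 (-0.14), SLC16A4 (-0.75), SLC16A5 (-0.74), SLC16A6 (-0.57) and SLC16A7 (-0.70), and against 0.5 TPM for SLC5A11 (0.37). Over coding transcripts it reversed for SLC2A4 (-0.053), SLC16A4 (-0.72) and SLC16A5 (-0.21), and over transcripts of at least 1000 bases for SLC16A5 (-0.65) and SLC16A7 (-0.75). These values are log2 differences from the level tested. SLC2A9, SLC5A2 and SLC5A11 were no longer called below without replicate 1 (adjusted p = 0.0771, 0.107 and 0.0786), and SLC2A9 and SLC5A11 without replicate 3 (0.0609 and 0.0814), in limma. Without replicate 2 this held for SLC2A5, SLC2A14 and SLC5A2 (0.0502, 0.0562 and 0.0982), and without replicate 1 SLC16A7 was called above (0.0374).

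Log2 ratios of pairs moved by more than their SD in these cases, and the cause was not tested. Over coding transcripts SLC2A1 to SLC2A3 was 2.75, SLC2A1 to SLC2A4 3.31, SLC2A6 to SLC2A8 -0.99, SLC5A3 to SLC5A11 5.0, SLC5A3 to SLC2A13 1.47, SLC5A6 to SLC5A3 2.66, SLC16A9 to SLC16A12 3.95 and SLC16A1 to SLC2A1 3.80. Over transcripts of at least 1000 bases SLC2A1 to SLC2A4 was 3.77, SLC2A3 to SLC2A14 3.66, SLC2A6 to SLC2A8 -0.73, SLC2A10 to SLC2A12 -1.19, SLC5A3 to SLC5A11 4.89, SLC5A3 to SLC2A13 1.34, SLC5A6 to SLC5A3 2.00, SLC16A1 to SLC16A7 7.74, SLC16A9 to SLC16A12 3.95, SLC16A1 to SLC2A1 2.58 and BSG to EMB 4.55. With a pseudocount of 0.01 SLC5A3 to SLC5A11 was 4.16, SLC5A3 to SLC2A13 1.23, SLC5A8 to SLC5A12 -3.19 (-1.54 with 0.1, on about 1 to 3 reads of SLC5A8) and SLC16A9 to SLC16A12 5.20. No comparison between groups, paired or not, was possible because the labels give 1 group only. Depth limits members under about 0.1 TPM, which rest on fewer than 10 reads each in these libraries.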
